A study of Mus musculus with 2 samples.

Results

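Dpys, Ankrd33b, Tmem267 and Rdh12 are 4 of the 32285 genes counted in myeloid cells of mouse colorectal polyps. They were chosen by their measured level, which differed over 2-fold in the same direction between a WT and a Clec7a-/- library in monocyte-like, macrophage-like and dendritic cell (DC)-like cells. None of them lies on chromosome 6, which carries Clec7a, the gene for the β-glucan receptor Dectin-1. Dpys was higher in the Clec7a-/- library, and Ankrd33b, Tmem267 and Rdh12 were lower. Clec7a itself was not analysed here, so the genotype was not checked on its own transcript.

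Each library held CD11b+ and CD11c+ cells that had been sorted from polyps, pooled over 5 WT or 4 Clec7a-/- mice of the C57BL6/J strain aged 26 weeks. Both groups had received azoxymethane (AOM), a colon carcinogen, and 3 cycles of 1% dextran sodium sulfate (DSS), which injures the colonic epithelium, and were examined 16 weeks after AOM. The Clec7a-/- line had been backcrossed to C57BL/6J, and the controls were bred in the same animal room. With 1 pooled library for each genotype there was no replicate. Genotype, mouse pool, sort and library preparation cannot be told apart, no test was made, and every interval below is a 95% interval that covers counting error only.

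Dpys encodes dihydropyrimidinase, which opens the ring of dihydrouracil and dihydrothymine in the breakdown of pyrimidine bases and is best known from liver and kidney. Rdh12 encodes a retinol dehydrogenase that reduces retinal with NADPH and is best known from photoreceptors, where it clears toxic retinal. Ankrd33b encodes an ankyrin repeat protein and Tmem267 a predicted membrane protein, and the roles of both are little characterised.

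The WT library held 3467 barcodes and 15869215 unique molecular identifiers (UMIs, each 1 captured transcript), and the Clec7a-/- library 3080 barcodes and 11808230 UMIs. After filtering, 2696 and 1999 cells remained, with median depths of 3412.5 and 2671 UMIs, and 17 barcodes occurred in both libraries before filtering. The cells formed 15 clusters, which were named from marker genes. The monocyte-like class had 687 WT and 482 Clec7a-/- cells, the macrophage-like class 531 and 296, the DC-like class 356 and 559, and the neutrophil-like class 671 and 403. Most neutrophil-like cells of WT lay in cluster 1 (484 cells) and most of Clec7a-/- in the shallower cluster 4 (320 cells). T-cell-like cells, 66 and 120, lack CD11b and CD11c as a rule and served as the reference for transcripts from other cells.

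In the GRCm38 annotation, Dpys lies at chr15:39768487-39857470 on the minus strand and Ankrd33b at chr15:31291478-31367726, also on the minus strand, 8.48 Mb apart from start to start. Tmem267 lies at chr13:119488039-119611059 and Rdh12 at chr12:79208914-79222665, both on the plus strand. Of the annotated genes that overlap Dpys or Tmem267, Gm16291, antisense within Dpys, had 2 WT and 1 Clec7a-/- UMIs in the 3 classes together, 3110070M22Rik had 1 and 2, and Gm48265 had 1 and 0. No annotated gene overlapped Ankrd33b or Rdh12.

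The start regions are shown because the 4 genes divide into a pair with highest levels in neutrophil-like cells (Ankrd33b and Rdh12) and a pair with highest levels in monocyte- and macrophage-like cells (Dpys and Tmem267). RefSeq windows from GRCm38.p6, reaching from 250 bases before to 50 bases after an annotated start, were matched for 3 of the 4 genes, and Tmem267 had 2 such windows. Capitals mark matches on either strand to 5 short motifs, and no match overlapped another. TATAAA is the core promoter motif named after its first letters. The motif CCAAT is commonly bound by NF-Y. The motif GGGCGG is known as the GC box and bound by Sp1. The motif GAGGAAGT resembles sites of PU.1, and TTGCNNAA those of C/EBP factors.
Ankrd33b start region (chr15:31367710-31368009, minus strand): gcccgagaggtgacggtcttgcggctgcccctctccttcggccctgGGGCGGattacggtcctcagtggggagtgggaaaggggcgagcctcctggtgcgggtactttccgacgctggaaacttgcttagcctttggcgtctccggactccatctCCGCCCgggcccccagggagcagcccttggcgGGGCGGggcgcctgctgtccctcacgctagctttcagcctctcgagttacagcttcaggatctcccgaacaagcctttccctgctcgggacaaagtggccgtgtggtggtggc
Tmem267 start region 1 (chr13:119487836-119488135, plus strand): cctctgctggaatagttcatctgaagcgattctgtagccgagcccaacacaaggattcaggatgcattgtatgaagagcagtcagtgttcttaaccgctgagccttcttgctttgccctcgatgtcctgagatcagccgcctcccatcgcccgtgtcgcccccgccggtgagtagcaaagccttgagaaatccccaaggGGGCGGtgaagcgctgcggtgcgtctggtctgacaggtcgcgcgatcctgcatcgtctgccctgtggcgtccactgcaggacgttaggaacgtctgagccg
Tmem267 start region 2 (chr13:119488223-119488522, plus strand): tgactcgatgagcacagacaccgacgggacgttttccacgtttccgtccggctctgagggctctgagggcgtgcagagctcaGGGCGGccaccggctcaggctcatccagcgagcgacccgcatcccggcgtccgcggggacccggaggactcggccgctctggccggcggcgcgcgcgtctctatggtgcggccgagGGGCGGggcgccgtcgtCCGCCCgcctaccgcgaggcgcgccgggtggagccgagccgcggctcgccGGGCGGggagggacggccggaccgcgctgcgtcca
Rdh12 start region (chr12:79208663-79208962, plus strand): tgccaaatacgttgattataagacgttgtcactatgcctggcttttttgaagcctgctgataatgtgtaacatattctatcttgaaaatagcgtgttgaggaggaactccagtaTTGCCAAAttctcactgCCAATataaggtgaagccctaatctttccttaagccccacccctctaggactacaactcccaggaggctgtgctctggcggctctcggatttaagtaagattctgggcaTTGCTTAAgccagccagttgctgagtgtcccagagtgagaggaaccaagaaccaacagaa
The Ankrd33b window held 22 CpG dinucleotides and the Tmem267 windows 22 and 50, against a median of 7 over 32851 windows of the same length. The Rdh12 window held 5. GGGCGG occurred 3 times in the Ankrd33b window, 1 and 4 times in the Tmem267 windows and not in the Rdh12 window, and 35.7% of all windows held it. The Rdh12 window held TTGCNNAA 2 times and CCAAT 1 time, sequences found in 10.8% and 37.4% of all windows. TATAAA and GAGGAAGT were in none of the 4 windows, and 13.6% and 3.20% of all windows held them. These matches describe letters and not bound sites.

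Dpys was the member with the higher level in the Clec7a-/- library. In monocyte-like cells it had 78 UMIs in WT, or 31.5 CPM (UMIs of the gene scaled to a common total of UMIs in the same cells, interval 24.9 to 39.3), and 311 in Clec7a-/-, or 205 CPM (183 to 229). In macrophage-like cells the level was 38.8 CPM in WT (33.1 to 45.1) and 178 CPM in Clec7a-/- (160.2 to 197.8). DC-like cells had 2 UMIs in WT, 1.10 CPM, and 104 in Clec7a-/-, 37.2 CPM. These 3 classes chose the gene, so their log2 ratios of Clec7a-/- over WT, 2.70, 2.20 and 5.08, are a description. The last rests on 2 WT UMIs and has an interval from 3.19 to 8.15. With classes taken from each cell's own markers it was 2.51 (1.70 to 3.42).

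Cells outside the classes that chose Dpys gave the same direction where it was present. They came from the same libraries, so this is a description and no independent check of the choice. Cluster 5 was called mixed, since it met the naming rule for neutrophils but also held at least 3 markers of another class. It had 25 UMIs in 326 WT cells (16.8 CPM) and 52 in 80 Clec7a-/- cells (214 CPM). The log2 ratio was 3.67 (2.96 to 4.42). Monocyte markers in this cluster summed to 6915 CPM in WT and 7584 CPM in Clec7a-/-, against 9181 and 8379 CPM in monocyte-like cells. The same markers summed to 4809 and 6450 CPM in neutrophil-like cells, so they do not set this cluster apart as monocytic. The source of its Dpys UMIs was not tested. A small unnamed cluster led by proliferation genes had 7 UMIs in 14 WT cells and 36 in 21 Clec7a-/- cells, and the log2 ratio was 2.17 (0.98 to 3.58). Neutrophil-like cells had 2 and 3 Dpys UMIs, too few to show a difference. With classes from each cell's own markers, the log2 ratio of Dpys in neutrophil-like cells was 2.57 (1.87 to 3.28), so its scarcity there depends on how the class is drawn. T-cell-like cells had none in either library, which allows up to 17.2 CPM in WT and 12.8 CPM in Clec7a-/-.

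The clusters within each class showed where Dpys transcripts lay. In WT the order of levels began with macrophage-like cluster 3 (45.6 CPM), monocyte-like cluster 0 (41.4 CPM), led by Ccl24 and Arg1, and macrophage-like cluster 7 (31.6 CPM), led by Mfge8 and Igf1, and neighbours among these 3 did not differ beyond counting error. The mixed cluster followed at 16.8 CPM, below cluster 7 by 0.91 on the log2 scale (0.23 to 1.64), and then cluster 2, the Ly6c2 and Chil3 cluster of monocyte-like cells, at 15.1 CPM. In Clec7a-/- the range over clusters 0, 5, 3, 7, 2 and 8 was 238 to 122 CPM, with no neighbouring pair apart beyond counting error, and a step of 2.41 on the log2 scale (1.74 to 3.11) separated cluster 8 from the next. The DC-like clusters were unequal. Cluster 8, a DC-like cluster resting on 3 markers, went from 1 UMI (2.32 CPM) to 61 (122 CPM), the Xcr1 and Itgae cluster 9 from 1 to 15, and the Fscn1 and Ccl22 cluster 6 from 0 to 28. For cluster 6, with no WT UMI, only the lower end of the interval of the log2 ratio is set, at 2.18.

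**Figure D1:**
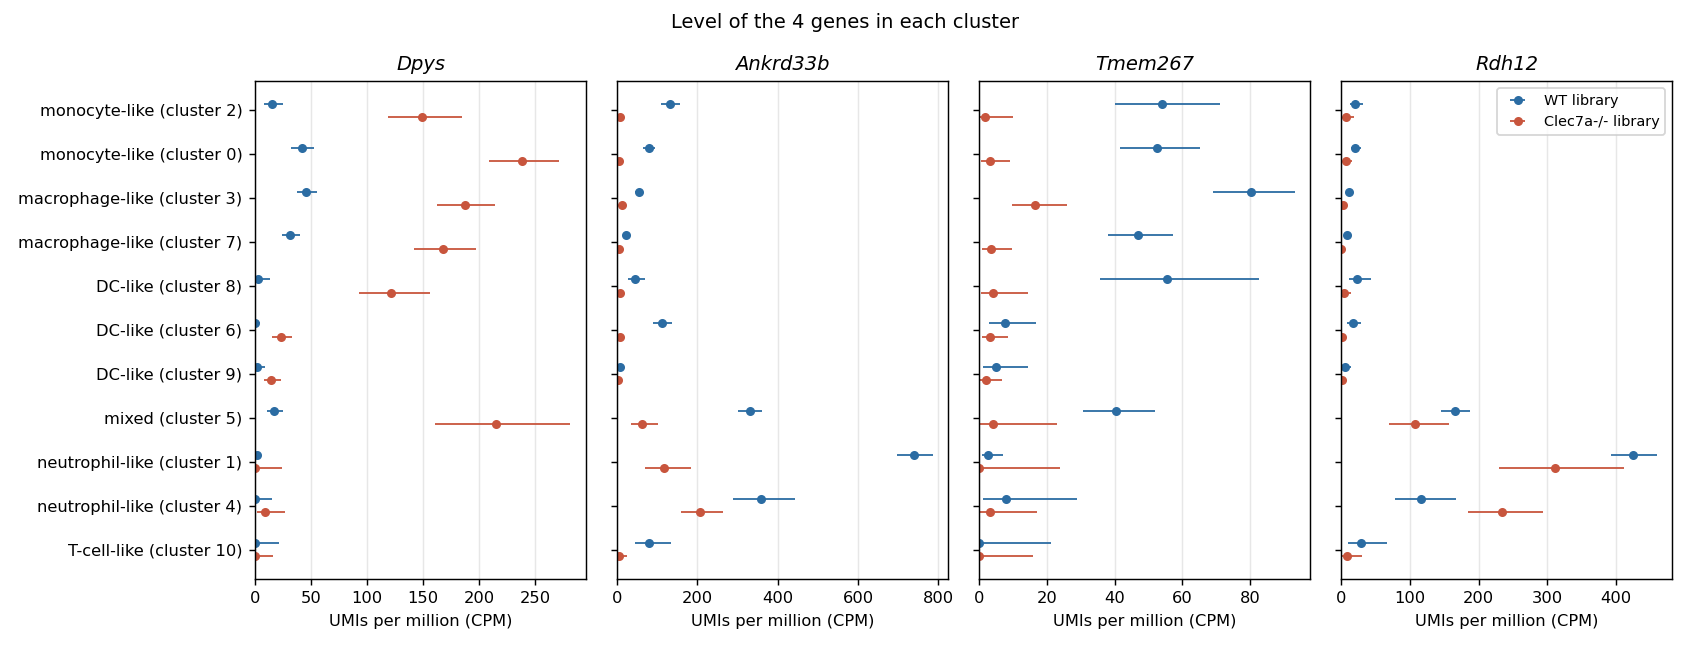
Level of each gene (x axis, CPM) in the 11 clusters with at least 50 cells per library (y axis), as points with 95% Poisson intervals for the WT library (blue) and the Clec7a-/- library (red). Dpys is higher in Clec7a-/- in the monocyte-, macrophage- and DC-like clusters and near 0 in neutrophil- and T-cell-like clusters, Tmem267 is lower and lies in much the same clusters, and Ankrd33b and Rdh12 peak in neutrophil-like cluster 1 of WT at 740.4 and 425 CPM.

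Because the Clec7a-/- cells were shallower, shares of cells with a UMI were compared after each cell was thinned to 1000 UMIs, which left out 186 WT and 307 Clec7a-/- cells. With Dpys, 21 of 645 WT monocyte-like cells had a UMI (3.26%, 2.03 to 4.93) and 85 of 450 Clec7a-/- cells (18.9%, 15.4 to 22.8). For macrophage-like cells the shares were 4.36% (2.75 to 6.52) and 19.1% (14.6 to 24.2). Among DC-like cells 0 of 330 WT cells had one, which allows a share of up to 0.909%, and 19 of 527 Clec7a-/- cells did (3.61%, 2.18 to 5.57). No T-cell-like cell had one, with 0 of 56 and 0 of 90 and limits of 5.36% and 3.33%. Without thinning the monocyte-like shares were 9.61% and 41.3% at median depths of 3202 and 2722.5 UMIs. The transcripts were spread over many cells, since the 10 highest cells held 13.5% of the monocyte-like and 17.1% of the macrophage-like Dpys UMIs in Clec7a-/-.

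Tmem267 had the opposite direction in the classes where it was measured. In monocyte-like cells it had 131 UMIs in WT (52.9 CPM, 44.3 to 62.8) and 4 in Clec7a-/- (2.64 CPM, 0.72 to 6.75), and in macrophage-like cells 274 (64.0 CPM, 56.6 to 72.0) and 21 (10.5 CPM, 6.51 to 16.1). DC-like cells had 33 UMIs (18.1 CPM) and 8 (2.86 CPM). The log2 ratios in these 3 classes, which chose the gene, were -4.33, -2.61 and -2.66. The mixed cluster, which did not, had 60 UMIs in WT (40.3 CPM) and 1 in Clec7a-/- (4.12 CPM), a log2 ratio of -3.29 (-8.62 to -0.76). It came from the same libraries and held monocyte markers, so it is no independent check of the choice.

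Like Dpys, Tmem267 was nearly absent from neutrophil-like cells, with 6 UMIs in 671 WT cells and 1 in 403 Clec7a-/- cells, and had no UMI in T-cell-like cells. With classes from each cell's own markers, its log2 ratio in neutrophil-like cells was -2.76 (-5.83 to -0.84). In WT its order began with macrophage-like cluster 3 (80.3 CPM), led by Pgf and Mmp13, then DC-like cluster 8 (55.6 CPM) and monocyte-like clusters 2 and 0 (53.9 and 52.4 CPM), with no neighbouring pair apart beyond counting error down to the mixed cluster. Clusters 6 and 9 of the DC-like class had 7.69 and 4.91 CPM. Their log2 ratios were -1.24 (-3.50 to 0.84) and -1.39 (-4.98 to 1.73), with intervals that included 0. Of the 33 WT UMIs of the DC-like class, 24 lay in cluster 8, where the log2 ratio was -3.80 (-6.93 to -1.79). In Clec7a-/- only cluster 3 had over 10 UMIs, with 18 (16.3 CPM), and no neighbouring pair in that order could be separated. After thinning, 27 of 645 WT monocyte-like cells had a Tmem267 UMI (4.19%, 2.78 to 6.03) against 2 of 450 (0.44%, 0.05 to 1.60), and 27 of 505 WT macrophage-like cells (5.35%, 3.55 to 7.68) against 3 of 278 (1.08%, 0.22 to 3.12). A share of 0 of 56 T-cell-like cells allows 5.36%, so the thinned shares were not separable from that reference at this depth. The unthinned levels of WT monocyte- and macrophage-like cells lay above the 17.2 CPM that no UMI in T-cell-like cells allows. The WT DC-like level of 18.1 CPM (12.5 to 25.4) was not separable from it, and all 3 Clec7a-/- levels lay below the 12.8 CPM allowed in that library.

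Ankrd33b was lower in the Clec7a-/- library in each of the 6 groups of cells compared, with intervals below 0. In monocyte-like cells it had 243 UMIs in WT (98.2 CPM, 86.2 to 111) and 9 in Clec7a-/- (5.93 CPM, 2.71 to 11.3). Macrophage-like cells had 166 (38.8 CPM) and 15 (7.51 CPM), and DC-like cells 110 (60.3 CPM) and 15 (5.36 CPM). The log2 ratios in these classes, which chose the gene, were -4.05, -2.37 and -3.49.

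The highest levels of Ankrd33b, however, were in neutrophil-like cells, which did not enter the choice. These cells came from the same libraries, and the classes that chose the gene also held neutrophil markers, as given below. They are therefore no independent check of the choice. In neutrophil-like cells Ankrd33b had 1188 UMIs in WT (685 CPM, 647 to 725) and 85 in Clec7a-/- (178 CPM, 142 to 219.6). The log2 ratio was -1.95 (-2.28 to -1.63). Of 4932 genes with at least 20 UMIs in neutrophil-like cells, 11.2% were over 2-fold apart, with 5.88% higher and 5.29% lower in Clec7a-/-. Of the 4 members, Ankrd33b and Rdh12 reached that minimum, and Ankrd33b was over 2-fold lower. Within the class, cluster 1 went from 740.4 to 116 CPM, a log2 ratio of -2.67 (-3.43 to -2.00), and cluster 4 from 359 to 207 CPM, a log2 ratio of -0.80 (-1.28 to -0.33). The mixed cluster went from 330 to 61.9 CPM. After thinning, 49.1% of WT (45.0 to 53.2) and 14.8% of Clec7a-/- neutrophil-like cells (10.4 to 20.3) had an Ankrd33b UMI, with 74 and 187 shallower cells left out. Without thinning the shares were 71.5% and 17.1% at median depths of 2508 and 1049 UMIs, against 13.6% and 0.83% of T-cell-like cells at 2082.5 and 1546 UMIs.

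The order of Ankrd33b levels in WT began with neutrophil-like cluster 1, then cluster 4 and the mixed cluster, which did not differ beyond counting error, and then monocyte-like cluster 2 (131 CPM), DC-like cluster 6 (111 CPM), T-cell-like cells (80.2 CPM) and monocyte-like cluster 0 (78.2 CPM), neighbours that did not differ either. The lowest was DC-like cluster 9 (6.55 CPM). In Clec7a-/- the order began with cluster 4 (207 CPM), cluster 1 (116 CPM) and the mixed cluster (61.9 CPM), and below a step of 2.51 on the log2 scale (1.31 to 3.73) the other clusters, from 10.9 to 1.87 CPM, could not be separated from their neighbours.

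Rdh12 was also a gene of neutrophil-like cells, and there the libraries were closer. It had 659 UMIs in WT neutrophil-like cells (380 CPM, 352 to 410) and 124 in Clec7a-/- (259 CPM, 216 to 309), a log2 ratio of -0.55 (-0.84 to -0.27). The clusters disagreed. Cluster 1, led by Retnlg, Ngp and S100a8, had 425 CPM in WT and 311 in Clec7a-/-, a log2 ratio of -0.45 (-0.91 to -0.03), while cluster 4, led by Dhx40 and Dgkz with Csf3r among its leading genes, had 116 CPM in WT and 235 in Clec7a-/-, a log2 ratio of 1.02 (0.38 to 1.69). Weighting both clusters the same gave a ratio of 0.28 for the class, on the other side of 0. In the 3 classes that chose it, Rdh12 was scarce: 51 and 11 UMIs in monocyte-like cells (20.6 and 7.25 CPM), 44 and 2 in macrophage-like cells (10.3 and 1.00 CPM), and 26 and 5 in DC-like cells (14.3 and 1.79 CPM). The log2 ratios were -1.51, -3.36 and -3.00. The macrophage-like one rests on 2 Clec7a-/- UMIs, and was -1.41 (-2.55 to -0.41) with classes from each cell's own markers and -1.77 (-4.95 to 0.35) without the top 5% of Scrublet scores. Macrophage-like cluster 7 had 18 WT UMIs and none in Clec7a-/-, so only the upper end of the interval of its log2 ratio is set, at -0.91.

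**Figure D2:**
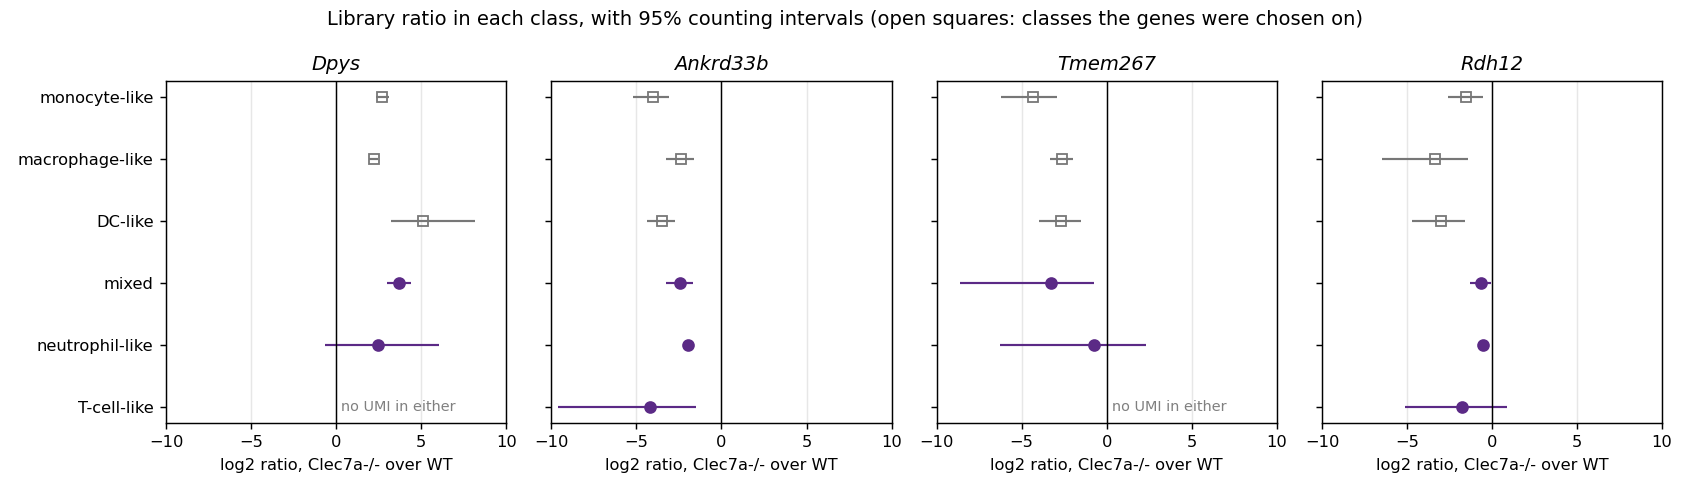
Log2 ratio of each gene's level, Clec7a-/- over WT (x axis), in 6 groups of cells (y axis), with 95% counting intervals. Open gray squares are the 3 classes that chose the genes, and filled circles the cells that did not. Rdh12 lies at -0.55 in neutrophil-like cells, nearer to 0 than Ankrd33b at -1.95, and Dpys and Tmem267 have no UMI in T-cell-like cells of either library.

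Beside these levels stand the markers of neutrophils. The summed level of the 11 markers (S100a8, S100a9, Csf3r, Retnlg, Cxcr2, Lcn2, Ngp, Mmp9, Hdc, Il1r2 and G0s2) was 44552 CPM in WT and 31112 CPM in Clec7a-/- neutrophil-like cells. It was 1955 to 2885 CPM over the monocyte-, macrophage- and DC-like cells of WT and 1218 to 2284 CPM over those of Clec7a-/-, where 1 marker was at 0 in macrophage-like cells. None was at 0 in those classes of WT. T-cell-like cells, which should not make these transcripts, had 5604 and 1898 CPM. Ankrd33b in T-cell-like cells was at 80.2 CPM in WT (14 UMIs, 43.9 to 135) and 4.27 CPM in Clec7a-/- (1 UMI), and Rdh12 at 28.6 CPM (5 UMIs, 9.30 to 66.9) and 8.53 CPM (2 UMIs). The Ankrd33b and Rdh12 levels of the 3 classes in WT lay within or below these intervals and cannot be read as expression by those classes from their level alone.

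The counts were therefore also set against the neutrophil markers of the same cells. In WT neutrophil-like cells there were 15.4 Ankrd33b UMIs (14.5 to 16.3) and 8.53 Rdh12 UMIs (7.89 to 9.21) per 1000 UMIs of the 11 markers. For Rdh12 the WT values in monocyte-like (7.14, 5.32 to 9.39), DC-like (7.30, 4.77 to 10.7), mixed (8.68, 7.63 to 9.84) and T-cell-like cells (5.11, 1.66 to 11.9) had intervals that overlapped the neutrophil-like one, and macrophage-like cells (4.83, 3.51 to 6.49) lay below it. In Clec7a-/- neutrophil-like cells Rdh12 was at 8.33 (6.93 to 9.93), overlapping the WT value, and monocyte-like (3.18), macrophage-like (0.668) and DC-like cells (1.47) lay below. For Ankrd33b the WT ratio was 34.0 (29.9 to 38.6) in monocyte-like and 30.9 (25.4 to 37.2) in DC-like cells, above the neutrophil-like value. It was 18.2 (15.6 to 21.2) in macrophage-like cells, overlapping that value, and 14.3 (7.83 to 24.0) in T-cell-like cells, level with it. In Clec7a-/- the Ankrd33b ratio was 5.71 (4.56 to 7.06) in neutrophil-like cells, below the WT value, and 2.60 to 5.01 in the 3 classes. Monocytes also carry some of the 11 transcripts, and the part of neutrophil RNA in the result was not tested. Of the 11, S100a8, Retnlg and Cxcr2 themselves met the members' rule given below.

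**Figure D3:**
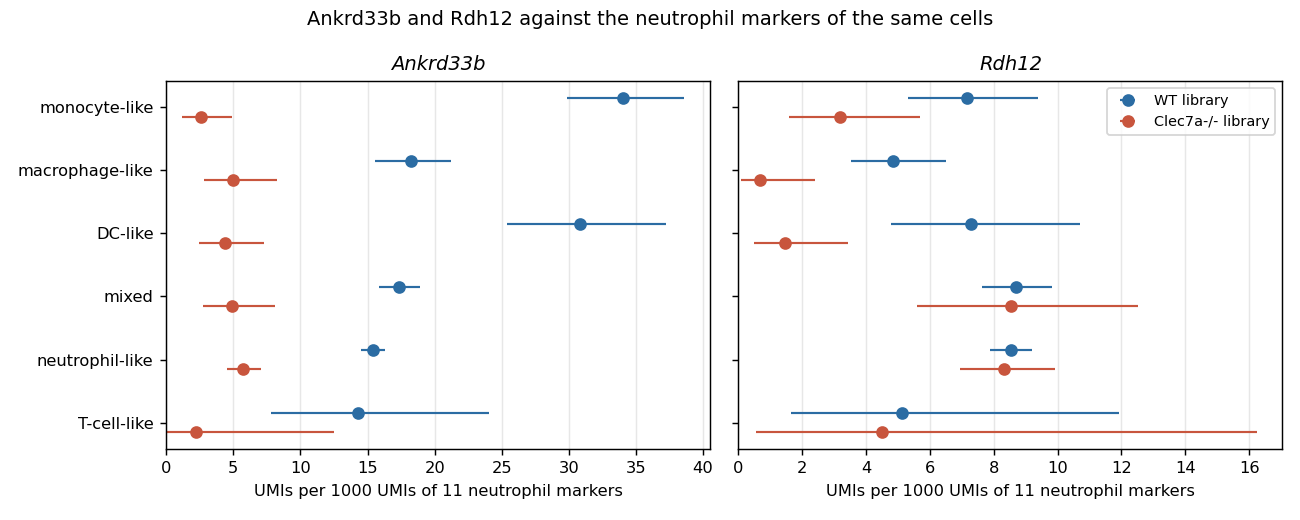
UMIs of Ankrd33b (left) and Rdh12 (right) per 1000 UMIs of 11 neutrophil markers in the same cells (x axis), by class (y axis), with 95% Poisson intervals for the WT library (blue) and the Clec7a-/- library (red). Rdh12 has overlapping values in neutrophil-like cells, 8.53 and 8.33, while Ankrd33b differs there, 15.4 and 5.71, and rises to 34.0 and 30.9 in monocyte- and DC-like cells of WT.

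Cells of the 3 classes were also split by whether they held a UMI of S100a8 or S100a9, an alternative chosen after seeing the data. Among monocyte-like cells with none, 278 of WT and 299 of Clec7a-/-, Ankrd33b had 66 UMIs (82.8 CPM) and 3 (3.44 CPM), Tmem267 53 (66.5 CPM) and 2 (2.30 CPM), and Dpys 27 (33.9 CPM) and 186 (214 CPM). The log2 ratios were -4.59, -4.86 and 2.66. Rdh12 had 6 UMIs (7.52 CPM) and 2 (2.30 CPM) there, a log2 ratio of -1.71 with an interval from -5.05 to 0.77, against 45 and 9 UMIs in the cells with such a UMI. In DC-like cells with none, Ankrd33b had 28 UMIs in 164 WT cells and 5 in 436 Clec7a-/- cells, and the log2 ratio was -4.22 (-5.95 to -2.83). In T-cell-like cells with none, 29 and 78, Ankrd33b and Rdh12 had no UMI, which allows up to 46.4 CPM in WT and 20.7 CPM in Clec7a-/-. For Rdh12 that limit is above the 28.6 CPM of all WT T-cell-like cells. All 14 WT UMIs of Ankrd33b and all 5 of Rdh12 in T-cell-like cells lay in the 37 cells with an S100a8 or S100a9 UMI. The cells with none were shallower in WT, at median depths of 2612 against 3571 UMIs for monocyte-like cells.

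The rule that chose the members was applied to every gene, with at least 20 UMIs in each of the 3 classes and 0.5 UMI added to each count. It was met by 17 of 7320 genes, 0.232%, with 5 higher (0.0683%) and 12 lower (0.164%) in Clec7a-/-. All 4 members were among them because the rule fixed it. Besides Dpys, the genes higher in Clec7a-/- were Hebp1 and Klra17, both on chromosome 6, Jaml on chromosome 9 and Gm21860 on chromosome Y. Besides Ankrd33b, Tmem267 and Rdh12, the lower ones included Klrb1b on chromosome 6 and the neutrophil transcripts S100a8, Retnlg, Cxcr2, Wfdc21 and Chil1. The rest were the monocyte chitinase-like gene Chil3, Mid1 on chromosome X, and Cldn1. In WT, 7 of the 12 lower genes had over 5 times the level in neutrophil-like cells that they had in the 3 classes together. Ankrd33b, at 11.3-fold, and Rdh12, at 27.0-fold, were among them. The share of all genes tested that pass 5 times was not computed, so the count describes this list only. Tmem267, at 0.0678, Klrb1b, at 0.0332, and Dpys, at 0.0402, had less in neutrophil-like cells. Just inside the 2-fold limit lay Cxcr2, at -1.003 in monocyte-like cells, and Jaml, at 1.02 in DC-like cells. Just outside lay Tpgs1, at 0.96 in macrophage-like cells, and Cdk16, at -0.93 in DC-like cells. The smallest of the members' own ratios with the 0.5 UMI added was that of Rdh12 in monocyte-like cells, at -1.46, and the smallest of Dpys, Ankrd33b and Tmem267 were 2.20, -2.32 and -2.57, all in macrophage-like cells.

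The genes beside each member on its chromosome were not used to choose it. With the 3 classes summed, 4.92% of 10698 genes with at least 20 UMIs were over 2-fold apart. The classes make up different parts of the sum in the 2 libraries, so values within the classes, with 0.5 UMI added, are given beside it. Within 1 Mb, 0 of 5 such genes beside Dpys, 0 of 5 beside Ankrd33b, 2 of 7 beside Tmem267 and 0 of 14 beside Rdh12 were over 2-fold apart, and none met the rule in all 3 classes. The rule needed at least 20 UMIs in each class, so neighbours with fewer in any class could not meet it. Dpys itself had a summed log2 ratio of 2.09 (1.88 to 2.30), but Dcstamp, the fusion receptor gene 7.55 kb away, had -0.02 (-0.16 to 0.13) and Lrp12, 13.1 kb away on the other side, -0.22 (-0.43 to -0.01). Within monocyte-, macrophage- and DC-like cells, in that order here and below, Dcstamp was at 0.37, 0.44 and 0.29, all above 0, and Lrp12 at 1.32, 0.21 and -0.62. Lrp12 was thus over 2-fold higher in monocyte-like cells, as were AU022793 at 2.08 and Slc25a32, 656 kb away, at 1.11. AU022793 had 49 and 44 UMIs in the sum and a summed ratio of 0.29, and Slc25a32 had 55 and 47 UMIs and 0.22. Slc25a32 was at 0.12 and 0.46 in macrophage- and DC-like cells. The share of all genes over 2-fold apart in monocyte-like cells is not given here. Dcaf13 was at -0.01, with 0.15, -0.01 and -0.12 in the classes.

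Ankrd33b had a summed log2 ratio of -3.29 (-3.80 to -2.82). Its neighbour Dap, 17.1 kb away, was at -0.79 (-0.95 to -0.63), in the same direction and smaller, with -0.75, -0.43 and -0.10 in the 3 classes. Ropn1l, March6 and Trio lay between -0.37 and -0.02 in the sum. Ropn1l and March6 were 73.5 and 88.2 kb away, but Trio was 3266 kb away, outside the 1 Mb window. Ropn1l was at 0.01, 0.40 and 0.76 in the classes, March6 at -0.07, -0.35 and 0.29, and Trio at -0.02, -0.06 and -0.93. Rdh12, at -2.31 (-3.11 to -1.59), stood beside its relative Rdh11, 16.6 kb away, at 0.08 (-0.23 to 0.39) with 0.30, 0.20 and 0.24 in the 3 classes. Vti1b, 36.2 kb away, was at 0.20, Zfyve26, 9.68 kb away, at -0.49, and Zfp36l1, 885 kb away, at 0.33. In the classes Vti1b was at 0.15, -0.22 and 0.32, Zfyve26 at -0.18, -0.03 and -0.81, and Zfp36l1 at 0.07, 0.28 and 0.02. Arg2, 52.6 kb from Rdh12, was at -0.72 (-0.82 to -0.61), in the same direction and smaller, with -0.17, -0.67 and -0.98 in the classes. It was the lowest of the 14 genes within 1 Mb, which had a median of -0.04 and a highest value of 0.53.

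Within 1 Mb, Tmem267 was the member with neighbours over 2-fold apart in the sum, and both lay beyond its end. It had a summed log2 ratio of -3.29 (-3.84 to -2.78). On the near side of its start, 4833420G17Rik, 1.92 kb away, and Paip1, 29.8 kb away, were at -0.01 and 0.18, with 0.49, -0.34 and -0.25 in the classes for the former and 0.17, 0.02 and 0.30 for the latter. Beyond its end, Hmgcs1, the gene of a cholesterol synthesis enzyme 79.3 kb away, went from 678 to 234 UMIs, at -1.09 (-1.31 to -0.88), and Nim1k, 99.0 kb away, from 21 to 6, at -1.36 (-2.96 to -0.01). Zfp131, Gm36161 and Gm21188, between 154 and 424 kb beyond, were at -0.54 (-0.71 to -0.37), -0.74 (-1.72 to 0.18) and -0.60 (-1.27 to 0.04), so the intervals of the last pair reached 0. Nim1k was at -0.19, -0.85 and -2.94 in the classes, on few UMIs. Zfp131 was at -0.13, -0.44 and -0.52, Gm36161 at -0.48, -0.04 and -0.62, and Gm21188 at -0.56, 0.39 and -0.91. Hmgcs1 was below 0 in each class, at -1.26, -0.94 and -0.75, and fell short of the 2-fold limit in macrophage- and DC-like cells. Nnt, whose deletion marks some C57BL/6 substrains, lies on the same chromosome, and its distance from Tmem267 is not given here. It had 7 and 3 UMIs in the 3 classes under 1 of its identifiers, too few to compare. Such counts also fall below the minimum for a neighbour, so its absence from the neighbours above does not place it far from Tmem267.

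**Figure D4:**
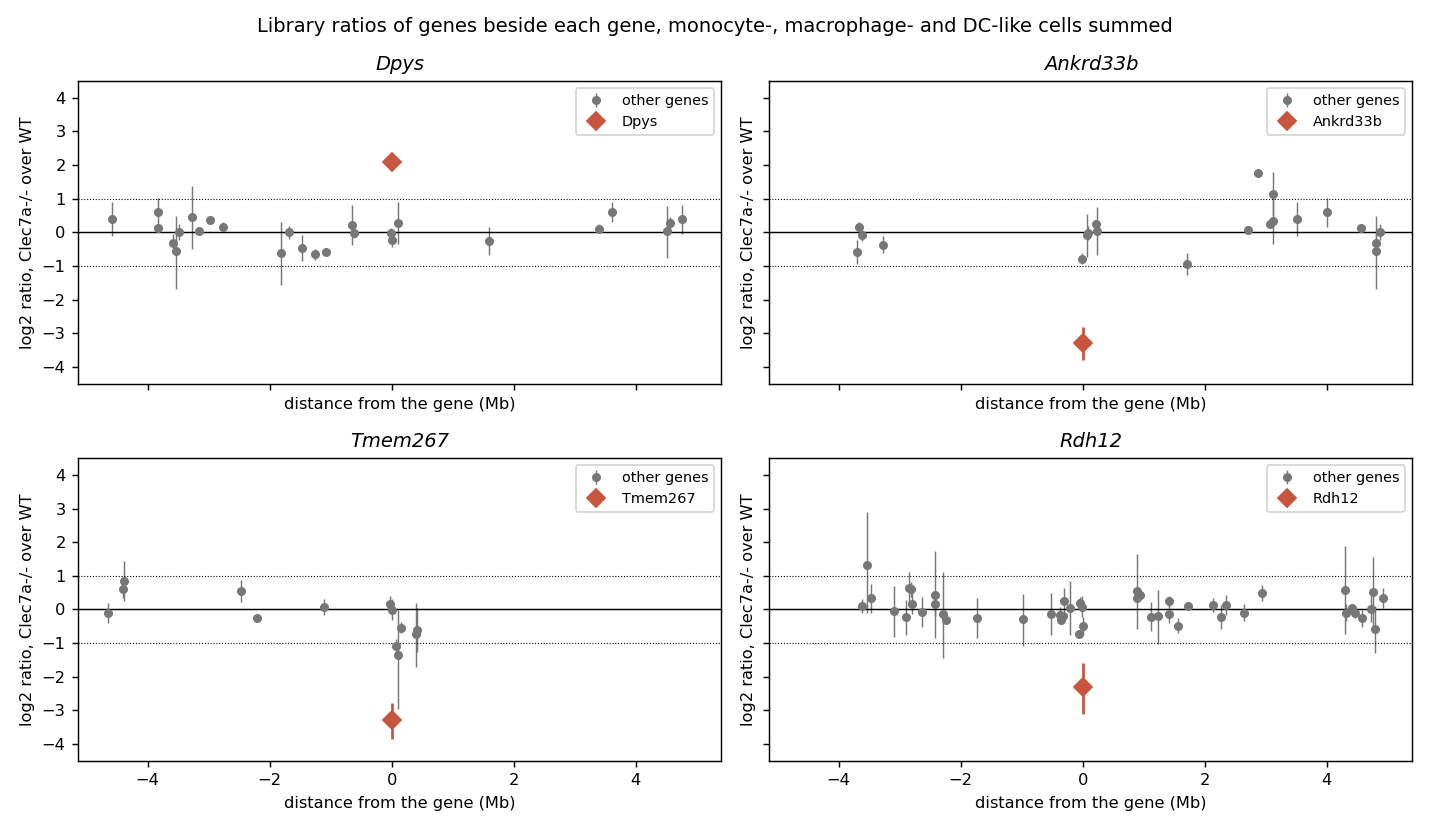
Log2 ratio of the summed level in monocyte-, macrophage- and DC-like cells, Clec7a-/- over WT (y axis), against distance from each gene (x axis, Mb) for all genes with at least 20 UMIs within 5 Mb, with 95% counting intervals. Red diamonds are the 4 genes at distance 0, gray points the other genes, and dotted lines mark 2-fold. Each diamond lies further from 0 than the points beside it. Beside Tmem267 the points on the right within 0.5 Mb lie below 0, down to Nim1k at -1.36, whose interval (-2.96 to -0.01) overlaps that of Tmem267.

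The other genes of the members' pathways and families made lists too short to set their shares against those of all genes. Of the other 10 pyrimidine genes with enough UMIs, 1 was over 2-fold higher and 1 over 2-fold lower in Clec7a-/- in the 3 classes summed, where 3.41% of all genes tested were higher and 1.5% lower by that much, with a median log2 ratio of -0.13 against 0.04 over all 10698 genes. The higher one was Upb1, whose enzyme follows dihydropyrimidinase in the pathway, with 12 and 25 UMIs (1.40 and 3.96 CPM) and a log2 ratio of 1.502 (0.46 to 2.63). It had 4 and 11 UMIs in monocyte-like, 4 and 0 in macrophage-like and 4 and 14 in DC-like cells. The lower one was Upp1, uridine phosphorylase, with 122 and 43 UMIs and -1.06 (-1.60 to -0.55). Dpyd, whose enzyme makes the substrate of dihydropyrimidinase, had no UMI in the 3 classes of either library. The salvage kinase Uck2 had 333 and 339 CPM.

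Of the other 13 retinal and retinol genes with enough UMIs, 1 was over 2-fold higher (Cyp26b1, 1.22) and 1 over 2-fold lower (Aldh1a3, -1.06), with a median of -0.21. Cyp26b1 was not over 2-fold apart within DC-like cells, which held most of its UMIs, at 0.46 (-0.41 to 1.39), and had 4 and 0 UMIs in macrophage-like and none in monocyte-like cells. Aldh1a3 was at -1.91 (-3.21 to -0.73) in DC-like cells. Rdh10, Rdh11, Rdh13 and Rdh14 lay between -0.31 and 0.08 in the sum, against -2.31 for Rdh12, but not all were level within the classes. Rdh13 was at 1.62 (0.38 to 2.97) in monocyte-like and -1.62 (-4.25 to 0.61) in DC-like cells, and Rdh14 at 1.22 (-0.32 to 2.85) in monocyte-like and -1.33 (-3.07 to 0.06) in macrophage-like cells. Aldh1a2, which makes retinoic acid in DCs, had 51.6 and 50.03 CPM in DC-like cells. Of the other 26 Ankrd genes with enough UMIs, 1 was over 2-fold higher (Ankrd55, 7 and 16 UMIs) and 0 were over 2-fold lower, with a median of -0.06. All Ankrd55 UMIs lay in DC-like cells, where its ratio was 0.57 (-0.79 to 2.1) and not over 2-fold. The lowest of these was Ankrd66 at -0.97 (-1.57 to -0.41). Of genes known to differ between C57BL/6 substrains, Wdfy1, Ide and Cyfip2 could be measured, at 0.18, -0.09 and 0.07.

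Across the 22 points given by 11 clusters in both libraries, the likeness of each member's profile to other genes was described by Pearson's r of log2(CPM + 1), over points that share libraries, depth and cell type. Rdh12 was most like S100a8 (r = 0.98), S100a9 (0.96) and Lcn2 (0.96), all of them neutrophil markers. Ankrd33b was most like Rdh12 (0.89), Ngp (0.87) and S100a8 (0.87). Dpys was most like Tnfsf13 (0.84), Ms4a6c (0.83) and Sh3tc1 (0.81), and Tmem267 was less like any gene, with Hilpda (0.77), Prdx1 (0.76) and Stra6l (0.73) the nearest.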

How the data were processed

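UMI counts per gene and cell were analysed as the authors deposited them, 1 matrix for the WT and 1 for the Clec7a-/- library. Per the labels the libraries came from a SeekOne MM 3' kit, although another label names 10x Genomics, and the submitters' processing notes name Cell Ranger 2.1.1 and build mm10. The study's limits were applied: 200 to 4000 genes per cell, and no more than 5% of UMIs mitochondrial. Doublets were not removed in the main analysis, and Scrublet scores served an alternative.

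Counts were clustered in Seurat 5.3.0 (R 4.3.3) with log-normalisation, 2000 variable features, 20 principal components and resolution 0.8, the smallest that gave 15 clusters. The members, genes within 5 Mb of them, their families, the listed genes and sex-linked genes, 1187 features, did not enter the clustering. A cluster was named from fixed markers, 3 or more of which had to be held, and a cluster that held 3 or more markers of another class was left mixed. Names rebuilt here may differ from those of the study.

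CPM was each gene's UMIs over all UMIs of the same cells, with exact Poisson intervals. Ratios had exact conditional intervals and shares exact Clopper-Pearson intervals. Where no UMI was seen, 3 counts set the upper limit. Shares used cells thinned to 1000 UMIs. Gene positions came from GENCODE M21 and start regions from RefSeq. The interval and the rule were tested on simulated counts drawn with counting error only, which cannot show variation between mice or libraries. edgeR 4.0.16 supplied an alternative scaling only, and its tests were not run.

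The 4 members, the marker lists and the gene lists were chosen with earlier results of these data known. The named genes were the members, the 2 nearest measured genes on either side of each, all genes meeting the members' rule, the 3 genes most like each member, and list genes with at least 20 UMIs. Slc25a32, Arg2, Zfp131, Gm36161, Gm21188 and the genes nearest the 2-fold limit were named after their values were seen. Cells are not replicates, and no p-value was computed.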

Additional observations from a re-analysis of the deposited data

Results flagged for a closer look

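Rdh12 was higher in the Clec7a-/- library in neutrophil-like cluster 4, with a log2 ratio of 1.02 (0.38 to 1.69), and lower beyond counting error in 7 other clusters. It was singled out because the direction differed between clusters of the same class, and the difference itself was not tested, with 1 library for each genotype. In cluster 4 the summed level of the 11 neutrophil markers moved the same way, from 16548 CPM in 187 WT cells to 24871 CPM in 320 Clec7a-/- cells, while in cluster 1 it went from 49280 to 44196 CPM. The markers did not all move alike in cluster 4. Csf3r went from 979 to 2401 CPM and Ngp from 260 to 21.6 CPM, so values per marker UMI depend on the mix of markers. Per 1000 UMIs of those markers, Rdh12 in cluster 4 was at 7.0 in WT (4.69 to 10.1) and 9.43 in Clec7a-/- (7.43 to 11.8). The cells of cluster 4 were shallow, with median depths of 1175 and 911 UMIs. Ankrd33b in the same cluster kept the direction it had elsewhere, at 21.7 per 1000 marker UMIs in WT (17.5 to 26.7) and 8.31 in Clec7a-/- (6.44 to 10.6).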

How the results depend on the processing

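Of 321 alternative values, 298 moved by less than their counting interval or kept a count within 1.5 times, 22 moved further and 1 changed sign. The sign change was Rdh12 in neutrophil-like cells, 0.28 with both clusters at the same weight. With classes taken from each cell's own markers, the log2 ratio of Dpys was 3.22 in the monocyte-like and 2.51 in the DC-like class and that of Rdh12 -1.41 in macrophage-like cells. In cells with no S100a8 or S100a9 UMI, a split added after seeing the data, Dpys was at 1.72 in macrophage-like and Ankrd33b at -0.14 (-2.62 to 1.78) in neutrophil-like cells, and in cells with such a UMI Ankrd33b was at -2.35 and Rdh12 at -1.45 in DC-like cells. The 17 genes meeting the rule became 11 with a mitochondrial limit of 10%, 7 at 50 UMIs or more and 5 at 100 UMIs or more. Tmem267 and Rdh12 were under both of these minimums, Tmem267 under the minimum of 20 with no filter on cells, and Rdh12 under it without the top 5% of Scrublet scores. Within 5 Mb, 2 genes beside Ankrd33b were over 2-fold apart in the sum, Laptm4b at 1.75 and Rida at 1.13, both higher in Clec7a-/-. Beside Rdh12 there was 1, Wdr89 at 1.34 on 7 and 13 UMIs. Rida, with 33 and 53 UMIs, was at 1.81, 1.34 and 1.43 in the 3 classes. It was not called, as the rule needed 20 UMIs in each class. At 100 UMIs or more within 1 Mb, 1 gene beside Tmem267 was over 2-fold apart. Without thinning, the log2 ratio of shares was 1.23 for Dpys in macrophage-like and -1.13 for Rdh12 in neutrophil-like cells. Both libraries were also summed, for the 11 clusters with at least 50 cells per library. The highest of these clusters then had 116 CPM of Dpys, 682 of Ankrd33b, 58.9 of Tmem267 and 414 of Rdh12. The causes were not tested, except that summing and higher minimums change the counts by construction. A further 16 alternatives gave no ratio. No paired analysis was possible because each genotype had 1 library, and for the same reason no replicate could be left out. Few UMIs limit Dpys and Tmem267 in the neutrophil-like clusters and in T-cell-like cells, and Rdh12 in macrophage- and DC-like cells. In neutrophil-like cells drawn by each cell's own markers, Dpys was at 2.57 and Tmem267 at -2.76.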
